A study of Homo sapiens with 14 samples.

Results

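The type 3 genes of RNA polymerase III considered here were RNU6-1, RNU6-2, RNU6-7, RNU6-8 and RNU6-9, which encode the U6 spliceosomal RNA, RNU6ATAC, which encodes the U6atac RNA of the minor spliceosome, RN7SK, which encodes the 7SK RNA that holds the elongation factor P-TEFb in an inactive complex, RMRP, which encodes the RNA of the endoribonuclease RNase MRP, and RPPH1, which encodes the RNA of the tRNA-processing enzyme RNase P. They were selected by name in GENCODE release 44, without the related pseudogenes, and make up 9 of the 62062 annotated genes on the autosomes and X. ZNF143 binding was measured by ChIP-seq in HEK293T, a human cell line of embryonic kidney origin. In the cells used here, a single clone labelled ZD29, ZNF143 carries an FKBP12F36V degron tag in both groups, and dTAG-V1 directs the tagged protein to degradation. There were 4 samples without treatment and 4 that received dTAG-V1 at 0.5 µM over 30 min, all precipitated with the Proteintech antibody. According to the methods of the study, this polyclonal antibody also recognizes CTCF, an architectural protein of chromatin. Each group is represented by 1 deposited list of peaks, without replicate columns or read counts. The depth behind a peak is therefore unknown, and differences between the groups could not be tested. Of the 20429 untreated peaks, 73.2% overlapped a dTAG-V1 peak, and of the 35287 dTAG-V1 peaks, 42.2% overlapped an untreated one. According to the methods of the study, untreated peaks were kept only if all 4 replicates had them, whereas 1 replicate was enough for a dTAG-V1 peak. If the deposited lists were made in this way, the numbers of peaks, the shares of genes with a peak and the ranks come from unequal filters. The lists contain no measure of how much ZNF143 protein was left after dTAG-V1.

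Type 3 promoters differ from those of other RNA polymerase III genes in that they lie upstream of the transcribed sequence. They contain a TATA box and a proximal sequence element (PSE), which is bound by the SNAPC complex, and a distal sequence element, in which an octamer bound by POU2F1 (Oct-1) commonly stands next to a binding site for ZNF143. This site is also known as the SBS, after Staf, the name of the Xenopus ZNF143. The snRNA genes that RNA polymerase II transcribes carry a PSE and a distal sequence element as well, but no TATA box. ZNF143 is a known activator of both kinds of promoter.

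The sequences upstream of 6 of these genes are shown as examples of promoters with and without each element. They comprise the 250 bases before the transcription start site (TSS) in hg38, in the direction of transcription. Capitals mark SBS hits that lie wholly within these bases, the exact octamer ATTTGCAT, an exact PSE core ACCNTAA starting 80 to 40 bases before the TSS, and TATA starting 35 to 20 bases before the TSS. RNU6-1 (chr15:67840046-67840295, minus strand) has all 4 elements in the order given. RNU6-7 (chr14:32201795-32202044, plus strand) and RNU6-8 (chr14:32203270-32203519, minus strand) face each other. Each has its own SBS hit at a separate site, and the best hits of both have the same 20 bases. RN7SK (chr6:52995371-52995620, plus strand) has neither an SBS hit nor an octamer. RMRP (chr9:35658018-35658267, minus strand) has an octamer and a PSE core without an SBS hit. In RPPH1 (chr14:20343408-20343657, minus strand) the octamer lies close to the PSE core. All 250 bases lie within a dTAG-V1 peak in each case except RMRP, where 211 do.
RNU6-1: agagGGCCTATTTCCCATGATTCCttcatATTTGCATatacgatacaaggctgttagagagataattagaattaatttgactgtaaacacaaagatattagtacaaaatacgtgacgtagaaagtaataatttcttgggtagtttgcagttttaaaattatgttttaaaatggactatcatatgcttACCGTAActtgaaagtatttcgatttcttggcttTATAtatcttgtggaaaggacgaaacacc
RNU6-7: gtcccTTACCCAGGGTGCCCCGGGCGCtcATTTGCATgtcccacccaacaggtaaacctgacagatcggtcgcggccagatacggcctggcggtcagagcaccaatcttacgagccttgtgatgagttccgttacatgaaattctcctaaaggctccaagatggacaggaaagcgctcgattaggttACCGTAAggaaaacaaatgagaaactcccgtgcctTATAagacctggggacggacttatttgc
RNU6-8: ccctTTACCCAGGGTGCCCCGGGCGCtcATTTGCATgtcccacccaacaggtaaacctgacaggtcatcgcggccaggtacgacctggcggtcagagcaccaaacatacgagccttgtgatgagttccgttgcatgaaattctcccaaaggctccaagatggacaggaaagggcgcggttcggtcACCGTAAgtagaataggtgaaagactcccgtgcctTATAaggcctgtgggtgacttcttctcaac
RN7SK: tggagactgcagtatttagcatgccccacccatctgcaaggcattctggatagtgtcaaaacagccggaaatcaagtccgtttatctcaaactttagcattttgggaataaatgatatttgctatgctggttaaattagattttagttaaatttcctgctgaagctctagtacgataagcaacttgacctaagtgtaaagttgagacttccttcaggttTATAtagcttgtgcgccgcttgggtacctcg
RMRP: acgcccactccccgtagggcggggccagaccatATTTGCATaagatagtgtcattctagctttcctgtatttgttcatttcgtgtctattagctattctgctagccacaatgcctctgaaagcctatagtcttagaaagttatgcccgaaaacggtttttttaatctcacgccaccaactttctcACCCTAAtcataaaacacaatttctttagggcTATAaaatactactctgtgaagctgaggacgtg
RPPH1: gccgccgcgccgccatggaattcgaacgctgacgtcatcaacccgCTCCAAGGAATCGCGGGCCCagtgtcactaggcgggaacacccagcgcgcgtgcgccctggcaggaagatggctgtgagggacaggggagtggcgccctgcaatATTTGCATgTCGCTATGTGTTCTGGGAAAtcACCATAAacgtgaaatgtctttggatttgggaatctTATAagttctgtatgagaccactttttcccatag

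ZNF143 peaks were found at 8 of the 9 type 3 genes, in both lists. Only RNU6ATAC had none, and the nearest peak centre was 28705 bp from its TSS in the untreated list and 28741 bp in the dTAG-V1 list. A gene was counted as having a peak when the centre of a peak lay within 2 kb of its TSS. By this rule, 17.5% of all annotated genes had a peak in the untreated list, 21.7% in the dTAG-V1 list and 15.6% in both. Of the protein-coding genes, 36.0% had an untreated peak and 42.8% a dTAG-V1 peak. At each of the 8 type 3 genes, the closest peak covered the TSS itself, and the untreated and the dTAG-V1 peak overlapped. The overlap spanned between 82% and 100% of either peak.

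**Figure D1:**
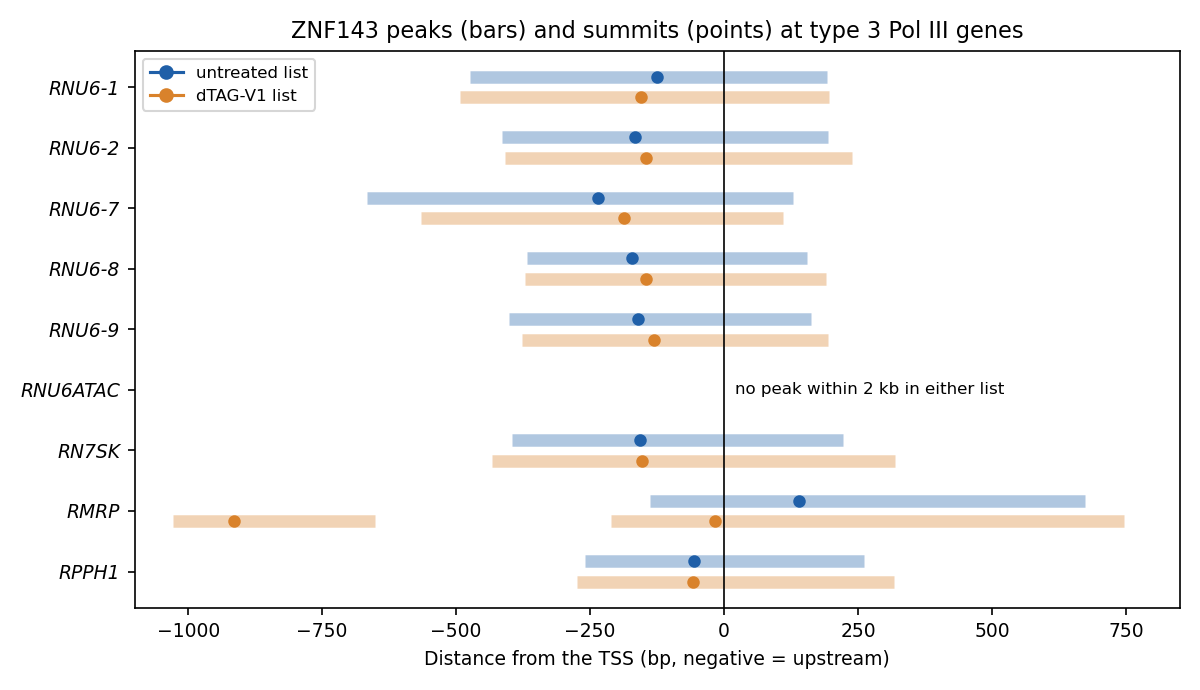
Peaks of the untreated (blue) and the dTAG-V1 list (orange) at the 9 genes, drawn by distance from the TSS in bp, with bars for the extent of a peak and points for its summit. The bars of 8 genes cross the TSS and RNU6ATAC has no peak; the peaks that RNU6-7 and RNU6-8 lend to each other's window are drawn only at the closer gene.

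The summits lay mostly between 100 and 250 bp upstream of the TSS. This was the case for 6 of the 8 genes in either list, with medians of -159 bp (untreated) and -145 bp (dTAG-V1) over the 8 genes, where negative values are upstream. Among all annotated genes with a peak, 13.8% of the untreated and 13% of the dTAG-V1 summits fell into that interval, with medians of -28 bp and -40 bp. The summit of RNU6-1 was at -125 bp in the untreated list and at -155 bp in the dTAG-V1 list, that of RNU6-2 at -167 bp and -145 bp, and that of RNU6-9 at -161 bp and -131 bp. The summit of RNU6-8 was at -172 bp and -145 bp. RNU6-7 had the most distant summit of the group, at -236 bp in untreated cells and -187 bp after dTAG-V1. The summit of RN7SK stayed within 3 bp, at -157 bp and -154 bp. RPPH1 and RMRP departed from this position. At RPPH1, the summits were at -57 bp and -58 bp. At RMRP, the summit was 140 bp downstream of the TSS, within the transcribed sequence, in the untreated list and 18 bp upstream in the dTAG-V1 list. Apart from this shift of 158 bp, the summits of the lists were 1 to 49 bp apart. The spread of a summit between replicates cannot be had from these lists, so that shifts of this size are given as values only.

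RNU6 sequences occur many times in the genome, and reads of low mapping quality were removed by the authors. The whole transcribed sequence of RNU6-1, RNU6-2 and RNU6-9 is present in 7 identical copies in hg38, and that of RNU6-7 and RNU6-8 in 2. The first 50 bases of these 5 genes are present in 21 copies. By contrast, each of the 45 pieces of 50 bases that cover the 250 bases upstream of the 9 genes occurred once. The whole transcribed sequences of RN7SK, RMRP and RPPH1 occur once, although the first 50 bases of RN7SK are present in 3 copies. The part of this difference in the position of the summits was not tested.

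Ranked by score, 7 of the 8 peaks were in the top decile of their list, both without treatment and after dTAG-V1. Of all annotated genes with a peak, 22.3% had one in the top decile of the untreated list and 24.3% had one in that of the dTAG-V1 list. RPPH1 had the best rank of the group in untreated cells, at 463 of 20429 peaks, with a score of 67974 and a fold enrichment of 35.7 over the local background at the summit. It ranked 489 of 35287 after dTAG-V1, with a fold enrichment of 28.3. RNU6-1 moved from rank 628 to rank 104, the best of the group in the dTAG-V1 list, with fold enrichments of 26.6 and 29.6. RPPH1 thus led the untreated list of these genes and RNU6-1 the dTAG-V1 list.

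The other U6 genes and RN7SK were close behind. RNU6-2 ranked 602 and then 397, with fold enrichments of 28.5 and 28.2. RNU6-9 ranked 936 and then 415, with fold enrichments of 27.7 and 32.2. RN7SK ranked 701 and then 442, with fold enrichments of 30.0 and 26.8. The fold enrichments of these genes were close to those of RNU6-1 and RPPH1, and the convergent pair had lower ones. RNU6-8 ranked 804 and 244 at fold enrichments of 14.8 and 19.9, and RNU6-7 ranked 1208 and 949 at 10.4 and 8.996. When the peaks were ranked by fold enrichment instead, RNU6-7 (rank 3293) and RNU6-8 (rank 2598) left the top decile of the untreated list and the other 5 genes stayed in it.

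RMRP stood apart from all of them. Its peak had a score of 245 and a rank of 7895 in untreated cells, and a score of 379 and a rank of 4271 after dTAG-V1, with fold enrichments of 4.35 and 5.12. It was also the widest of the group, with 812 bp and 958 bp against 521 to 796 bp for the other 7 genes in the untreated list and 563 to 754 bp in the dTAG-V1 list. A second peak, of rank 27629, was present 914 bp upstream of RMRP in the dTAG-V1 list only.

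**Figure D2:**
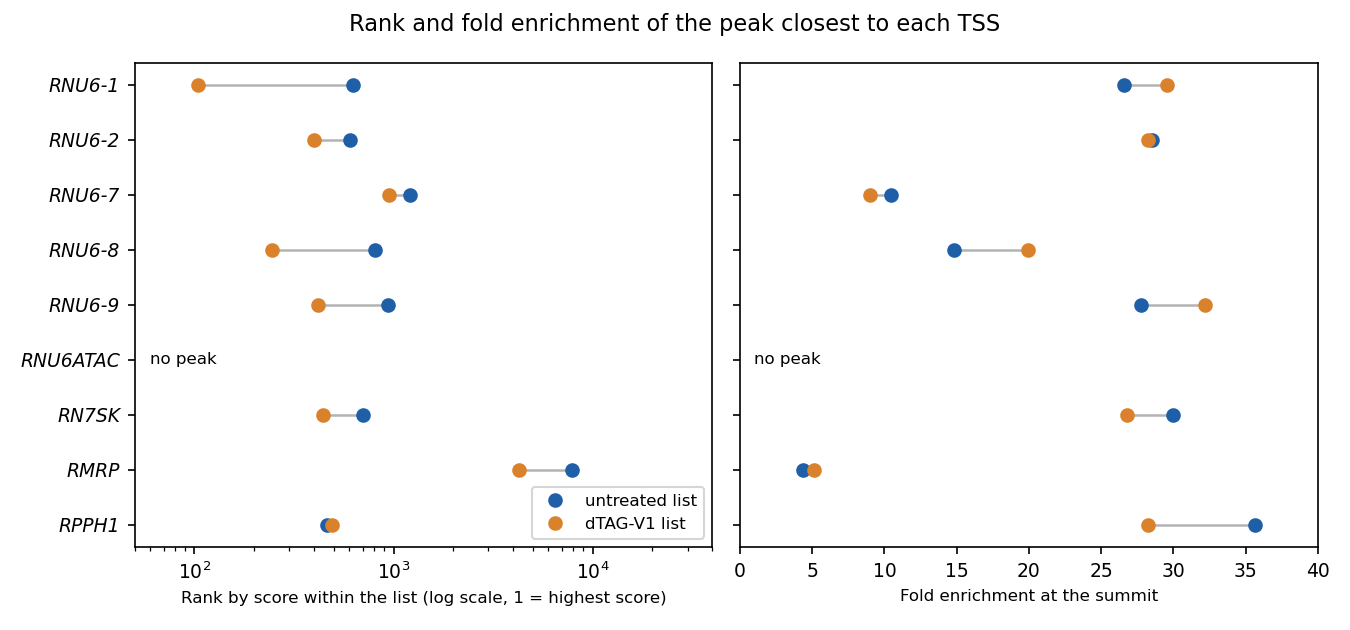
Rank by score within each list (left, log scale, rank 1 is the highest score) and fold enrichment at the summit (right) for the peak closest to each TSS, untreated in blue and dTAG-V1 in orange. In the left panel 7 genes sit between ranks 104 and 1208 and RMRP at 7895 and 4271; in the right panel RNU6-7, RNU6-8 and RMRP lie below the other genes.

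None of the 8 genes lost its peak in the dTAG-V1 list. Of the 7 genes in the top decile, 6 had a better rank in the dTAG-V1 list than in the untreated list, and RPPH1 did not. To read this count, the 746 untreated peaks that ranked from 463 to 1208, the range of these 7 genes, were followed. All 746 overlapped a dTAG-V1 peak, and 49.9% of them had a better rank there, with a median rank of 827.5 and quartiles of 591.75 and 1076.5. With ranks by fold enrichment, 6 of the 7 genes and 47.3% of the 746 peaks had a better rank in the dTAG-V1 list. Scores were lower in the dTAG-V1 list at all 7 genes, for example 53031 and 50129 for RNU6-1 and 67974 and 21810 for RPPH1, but scores of the lists are not on a common scale. The highest untreated score was 380426 and the highest dTAG-V1 score was 151013. A rank is a place among the other peaks and does not show whether binding at a gene rose or fell.

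Most of the bound type 3 genes shared their upstream region with another gene. A protein-coding gene started 208 to 343 bp upstream, on the other strand, at 5 of them. These were TMEM259 at RNU6-2, MED16 at RNU6-9, GSTA4 at RN7SK, CCDC107 at RMRP and PARP2 at RPPH1. The untreated summit was 157 bp from the TSS of RN7SK and 160 bp from that of GSTA4, and 167 bp from RNU6-2 and 176 bp from TMEM259. At RNU6-9 it was nearer to MED16 (105 bp) than to the U6 gene (161 bp). In the dTAG-V1 list this order was reversed, with 135 bp to MED16 and 131 bp to RNU6-9. The untreated summits of RPPH1 and RMRP were nearer to the type 3 gene. They were at 57 bp against 151 bp for PARP2 and at 140 bp against 413 bp for CCDC107. At RNU6-7, the lncRNA gene ENSG00000286527 started 309 bp upstream on the other strand, 73 bp from the untreated summit. RPPH1 also had the lncRNA gene ENSG00000259001 on its own strand, 278 bp upstream. At RNU6-1 the only neighbour within 2 kb was SKOR1-AS1, 1166 bp downstream, and a second annotation of RN7SK, named 7SK, starts 1 bp before it. The TSSs of RNU6-7 and RNU6-8 are 1224 bp apart, so that each gene had the peak of the other in its window as a second peak. A single summit between divergent starts cannot be told apart as belonging to one gene or the other.

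SBS hits were searched from 250 bases upstream to 50 bases downstream of the TSS, with matrices of 20 bp learned from untreated peaks on odd-numbered autosomes, without the peaks of these genes. At a matrix p of 5e-05 or less, 6 of the 9 type 3 genes had a hit, against 42.8% of the other annotated genes and 60.5% of the protein-coding genes. The count rests on the second of these matrices, SBS1, which was added after the first, SBS2, had been seen to hit only RNU6-1 and RNU6-9, and the core word TCCCANNAT alone was also found in only 2 of the genes. At 1e-05 or less, 5 had one, against 21.6% of the other genes. SBS hits were thus common in promoters as a whole. The strongest were those of RNU6-7 and RNU6-8, which had the same 20 bases with a matrix p of 4.1e-09, a value reached or passed by 0.677% of the other promoters. RNU6-2 had a hit with a matrix p of 2.4e-08, which 1.25% of the other promoters reached. The hits of RNU6-9 (1e-06), RNU6-1 (7.3e-06) and RPPH1 (1.5e-05) were reached by 7.12%, 18.7% and 26.8% of the other promoters. In the U6 genes, these best hits are written here in the sense strand.
RNU6-1: GGCCTATTTCCCATGATTCC
RNU6-2: GCACCCACAATCCACCGCGG
RNU6-7 and RNU6-8: TTACCCAGGGTGCCCCGGGC
RNU6-9: ATTCCCAGCAGCCACCGTAG

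The SBS stood beside the octamer at all 5 U6 genes, if 1 mismatch in the octamer of RNU6-2 is allowed. It ended 4 to 5 bases before the octamer in RNU6-1, RNU6-7 and RNU6-8. In RNU6-9 the order was the reverse, with the octamer at -224 bp and the best hit 16 bases after it. RNU6-2 had an octamer with 1 mismatch, at -241 bp, 4 bases before the SBS. An octamer with at most 1 mismatch was found in 7 of the 9 genes and in 22.9% of the other promoters. RPPH1 had a hit on the other strand at -205 to -186 bp and another at -92 to -73 bp, directly after its octamer at -101 bp. A further hit, in the sense strand, crossed the TSS at -10 to 9 bp with a matrix p of 4.3e-05. No hit passed the threshold in RN7SK, RMRP or RNU6ATAC. For RN7SK, matrices with a larger pseudocount, tried after the first result was seen, gave a hit on the other strand starting at -217 bp with a matrix p of 1.2e-05. Such matrices had a hit at 5e-05 or less in 45.8% of the other promoters. RMRP had a hit elsewhere in its peak, centred 473.5 bp downstream of the TSS. Of the genes without a hit, RN7SK was among the highest ranks while RMRP was low and RNU6ATAC had no peak. The whole RN7SK peak had no hit at the threshold either, with a best matrix p of 0.0001. Of the untreated peaks in the top decile, 99.5% had a hit, a share that includes peaks used to learn the matrices.

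The exact octamer was found in 6 of the 9 genes and in 2.27% of the other promoters, searched on both strands. The genes without it were RNU6-2, RN7SK and RNU6ATAC. An exact PSE core was present in 6 genes, against 0.474% of the other promoters, and was missing in RNU6-9, RNU6ATAC and RN7SK. TATA was present in 6, against 5.27%, and was missing in RNU6-2, RNU6-9 and RNU6ATAC. RNU6-9 has no match to the PSE core even with 1 mismatch. Both an octamer and an exact PSE core occurred in RNU6-1, RNU6-7, RNU6-8, RMRP and RPPH1, and in 11 of the 62053 other promoters. These words are known from this class of promoter, and some of them from these very genes, so their presence describes the promoters and is no result on ZNF143. RNU6ATAC, which had no ZNF143 peak, was also the only one of the 9 genes without a hit to the SBS, an octamer or a TATA in the windows searched, and had a PSE core with 1 mismatch at -62 bp. No match says only that these letters are not in the window.

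The RNU6-7 and RNU6-8 promoters were near copies of each other. In a global alignment, 87.6% of the 250 upstream bases were identical, whereas the other 35 pairs among the 9 genes had between 46% and 58.4%. Nevertheless, the peaks of this pair differed in both lists, with untreated ranks of 1208 and 804 and dTAG-V1 ranks of 949 and 244. RNU6-8 was the higher one on each occasion. Each of the 50-base pieces upstream of both genes occurred once in the genome.

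The summits lay at varied distances from the SBS. The distance from the middle of the best hit to the untreated summit was 111.5 bp for RNU6-1, 52.5 bp for RNU6-2, 64.5 bp for RNU6-8, 29.5 bp for RNU6-9 and 138.5 bp for RPPH1. For RNU6-7 it was 0.5 bp. In the untreated list, 4 of these 6 distances were thus 50 bp or more. After dTAG-V1 these distances were 81.5, 74.5, 91.5, 59.5 and 137.5 bp in the same order, and 48.5 bp for RNU6-7. These distances use the best hit in the promoter window, whereas the background below uses the best hit in the whole peak. In RPPH1, another hit at -92 to -73 bp, with a matrix p of 1.9e-05, was nearer to the summits at -57 bp and -58 bp. Over the whole peak, the best hits of RNU6-8 (matrix p 8.5e-10, at -314.5 bp) and RNU6-9 (7.1e-07, at -270.5 bp) lay further upstream, 142.5 bp and 109.5 bp from the untreated summit. In RNU6-1, RNU6-2, RNU6-7 and RPPH1 the best hit was the same as in the promoter window. The best hit of RMRP was 333.5 bp from its untreated summit. Among the untreated peaks of the top decile with an SBS hit, the median distance between the best hit in the peak and the summit was 13.5 bp, and it was 50 bp or more in 18.3%. In the dTAG-V1 list, the median was 22.5 bp and 34.9% were at 50 bp or more. The SBS matrices were learned within 100 bases of untreated summits, and the untreated background includes peaks used for this. The peaks of the genes described here were left out of the learning. The background distances may therefore be short in part by construction, also at dTAG-V1 peaks that overlap untreated ones. Whether these genes differ from other peaks in this distance was not tested. An octamer, in RNU6-2 with 1 mismatch, and an exact PSE core were both present in 6 of the 8 genes with a peak. RNU6-9 and RN7SK lacked an exact PSE core. The stretch between the words is wide, in RNU6-1 from the octamer at -221 bp to the PSE core at -63 bp. The summits of RNU6-1, RNU6-2 and RNU6-8 lay between the octamer and the PSE core in both lists. The summit of RNU6-7 did so in the dTAG-V1 list only, and those of RPPH1 and RMRP in neither. At RPPH1 the untreated summit was 10 bp from the middle of the PSE core.

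**Figure D3:**
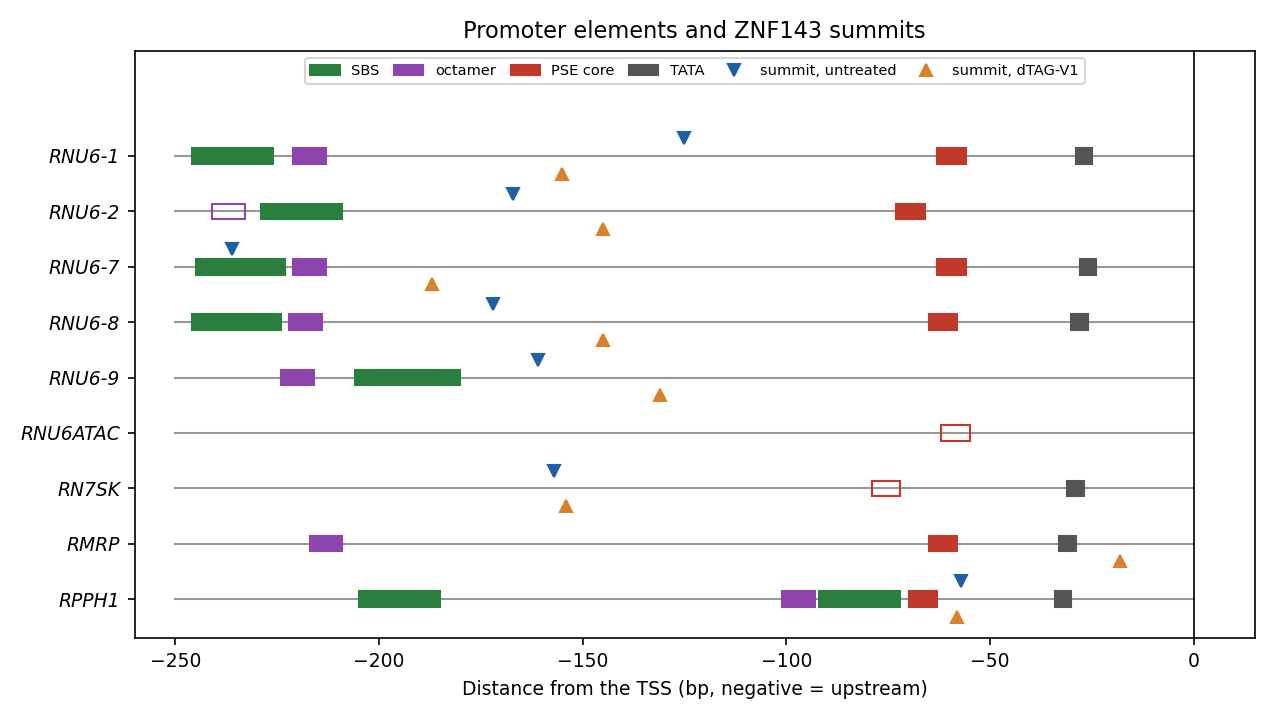
Elements found in the 250 bases upstream of the TSS (boxes, open where there is 1 mismatch) and summits of the untreated (blue, above the line) and the dTAG-V1 list (orange, below), by distance from the TSS in bp. Summits of the U6 genes lie downstream of the SBS except for that of RNU6-7 in untreated cells, and the untreated summit of RMRP, at 140 bp downstream, is outside the plot.

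A CTCF matrix learned from the dTAG-V1 list had a hit in 2 of the 8 peaks of either list. These were RN7SK, with a matrix p of 4.8e-06 and the hit centred at -300.5 bp from the TSS, and RNU6-2, with 1e-05 and a hit at -268.5 bp. Both hits were more than 100 bp from the summits. Of all peaks, 35.2% of the untreated and 51.3% of the dTAG-V1 ones had a CTCF hit. In the top decile of each list, the shares were 47.1% and 46.4%. The part of CTCF in the signal at RN7SK and RNU6-2 was not tested, since the deposited lists used here come from the ZNF143 precipitation alone.

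Genes with related promoters had their summits at similar distances. Of the RNA polymerase II snRNA genes, 17 of 21 had a peak in each list, with median summits at -168 bp and -154 bp. RNU5B-1 and RNU12, of the major and the minor spliceosome, had the best ranks, at 320 and 501 without treatment and 251 and 143 with it. The 3 annotated Y RNA genes examined, which also have type 3 promoters, had peaks with median summits at -146 bp and -144 bp, and RNY1 reached rank 323 and rank 67 and RNY4 rank 347 and rank 248. Of the RNA polymerase III genes with internal promoters, 6 of 24 had a peak. The best were RN7SL1 (ranks 1416 and 982) and RN7SL2 (ranks 7274 and 3143), which encode the RNA of the signal recognition particle. Most of the 24 were the genes RNA5S1 to RNA5S17, of which only RNA5S17 had a peak, with summits at -1711 bp and -1605 bp. Of the rest, RN7SL1, RN7SL2, VTRNA1-1, VTRNA1-2 and VTRNA1-3 had a peak, and VTRNA2-1 and BCYRN1 had none. Whether the removal of reads of low mapping quality affected the RNA5S genes was not tested. Of the 1599 pseudogenes named after these type 3 genes, 2.75% had an untreated peak and 5.44% a dTAG-V1 peak. RNU6-92P (rank 237), RN7SKP114 (rank 318 with dTAG-V1) and RNU6-1276P (ranks 539 and 370) were the highest of these, with summits at -513 bp, at -484 bp and at 689 bp (untreated) or 688 bp (dTAG-V1) from the annotated start. The median summits of all the bound pseudogenes were at -663.5 bp and -364 bp, and the medians of the groups were not tested against each other. Among the factors that act on type 3 promoters, 8 of 10 genes had an untreated peak and 9 a dTAG-V1 peak. ZNF143 itself (rank 524) and SNAPC3 (rank 538), a subunit of the SNAPC complex, ranked best in untreated cells, and SNAPC3 (rank 521) and BDP1 (rank 1321), a subunit of the initiation factor TFIIIB, in the dTAG-V1 list.

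**Figure D4:**
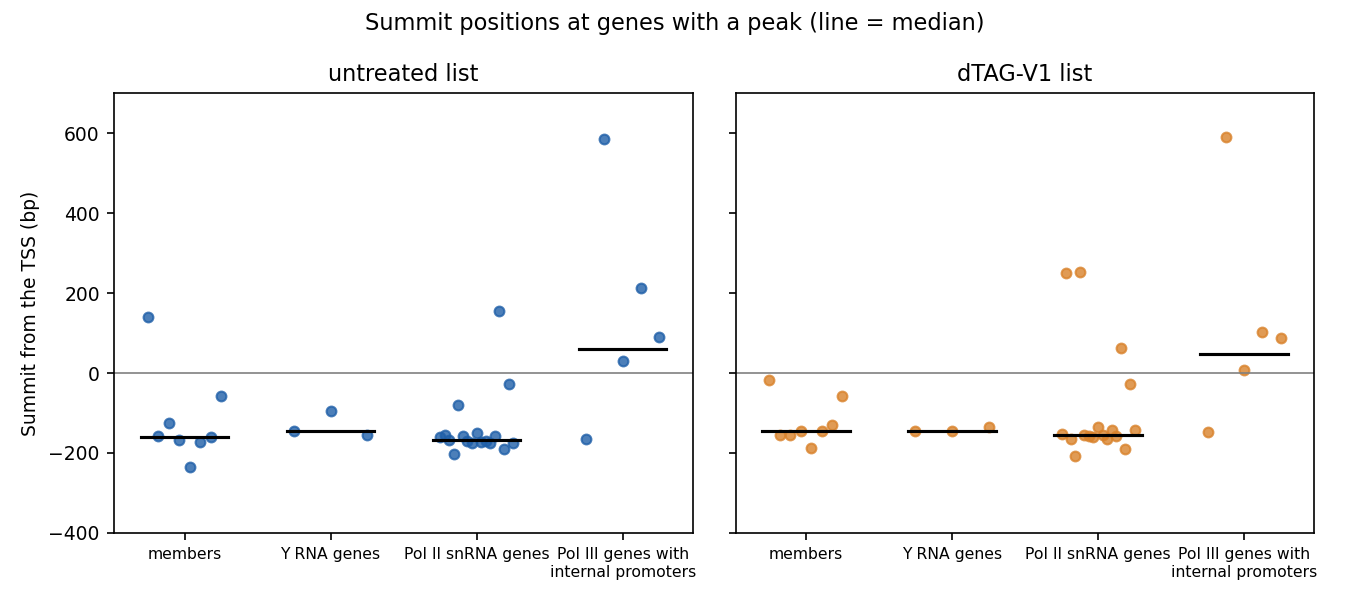
Distance of the summit from the TSS in bp at genes with a peak, in the untreated (left) and the dTAG-V1 list (right), with 1 point for each gene and a line at the median of the group. Members are the type 3 genes described here; the points cluster near 150 bp upstream for these, the Y RNA genes and the RNA polymerase II snRNA genes, and 1 gene with an internal promoter, with summits at -1711 bp and -1605 bp, is outside the plot.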

How the data were processed

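ZNF143 ChIP-seq of 8 samples was analysed from 2 deposited lists, and the 6 CTCF samples were not analysed here. Per the methods and the labels, the authors mapped reads to hg38 with BWA, filtered on mapping quality and proper pairs with SAMtools, removed duplicates with Picard and called narrow peaks with MACS2 outside the blacklist. A control library is not given in the sources used here. The deposited values are a score, a fold enrichment (ratio) and a −log10 q-value for each peak, as the authors' peak caller wrote them, each on the scale of its own list. The score follows the −log10 q-value, with 53031 and 5303.1 for RNU6-1 and 245 and 24.6 for RMRP in the untreated list. Ranks by score are therefore ranks of significance and not of binding strength. The lists hold 0 columns of single replicates. Peak names of the untreated list refer to DMSO, and the labels were followed. The methods describe keeping untreated peaks that all 4 replicates share and dTAG-V1 peaks of at least 1 replicate, and whether the deposited lists carry these unequal filters, which affect which weak peaks are listed, is unknown.

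Genes and TSSs came from GENCODE release 44 on hg38. A peak belonged to a gene when its centre was within 2 kb of the TSS, and ties of score shared the best rank. SBS1 and SBS2 matrices were learned within 100 bases of untreated summits in 10 rounds with a pseudocount of 0.8, starting from a core word, and were searched at a matrix p of 5e-05. SBS1 was added after SBS2 alone had been seen to hit 2 genes, and a CTCF matrix, learned in the same way from the dTAG-V1 list, was also added after the data were seen. Sequences were read with samtools 1.23.1 and pysam 0.24.0 and values computed with pandas 2.3.3, numpy 2.4.6 and scipy 1.17.1 in Python 3.11.15, and the steps were tested on simulated data. The genes, lists and elements were chosen with earlier results of these data known. All 9 genes are named, as are genes starting within 2 kb of them and the 2 best-ranked genes of each comparison list. The other RNA polymerase III genes with internal promoters are named as well. RNY5, TRU-TCA1-1, RNU2-2 and RNU3 were not found under these names in the annotation. No test between groups was made.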

Additional observations from a re-analysis of the deposited data

How the results depend on the processing

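The count of 8 genes with a peak stayed at 8 in both lists with a window of 500 bp or 1 kb, with summits for centres, with −log10 q of at least 5 or 20, and with a peak over the TSS. The share of all genes with a peak fell from 17.5% (untreated) and 21.7% (dTAG-V1) to 12.1% and 13.7% within 500 bp, 14.8% and 17.6% within 1 kb, 16.2% and 19.2% at a −log10 q of 5, 10.3% and 8.76% at 20, and 8.94% and 9.58% over the TSS. Summits were within 100 bp in 7 of the 8 genes, the exception being RMRP. The median rank of the 8 genes in the untreated list was 752.5 by score and 1266 by fold enrichment. The median position in the dTAG-V1 list was -145 bp for summits and -88 bp for centres. Centres lay downstream of the TSS at RPPH1, by 1 bp (untreated) and 21 bp (dTAG-V1), and by 267.5 bp at RMRP in the dTAG-V1 list, where the summits were upstream. RefSeq starts changed no direction. An SBS hit was found in 6 genes, in 2 with the SBS2 matrix alone, in 2 by the 9-letter core word TCCCANNAT, and in 7 with the larger pseudocount. The share of the other promoters with a hit was 42.8% in the main setting and 45.8% with the larger pseudocount. The cause of these differences was not tested. No paired analysis was possible because the lists hold no replicates, and leaving out a replicate was not possible for the same reason. Depth is unknown, so that a missing peak, such as that of RNU6ATAC, says only that none was called.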
